A study of Drosophila melanogaster with 6 samples.

Results

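Segmentation, Hox and selector transcription factors are the genes that lay out the fly body and name its organs. A list of 45 of them was examined in RNA from the larval proventriculus, the valve-like organ between foregut and midgut. The genes were listed by function, with earlier results of these data known, and were found by symbol in the array annotation. Of the 45 genes, 37 were read by a probe set with 1 gene symbol, out of 11982 genes so named on the array. The other 8 (run, slp1, sd, tin, lab, Ubx, abd-A and Abd-B) are not analysed here.

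In the embryo, gap genes such as Kr and kni divide the body into broad regions, pair-rule genes such as eve and ftz divide these into segments, and segment polarity genes such as gsb pattern each segment. Hox genes then give segments their identity, and selector genes such as ey for the eye or vg for the wing assign cells to an organ. Many of these genes are classic targets of Polycomb group silencing, and later in life several are used again in neurons, imaginal discs, gut and muscle.

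All 6 arrays came from larvae of the strain hairy-gal4 UAS-neoGFP at instar 3. A hairy driver directs the neoGFP transgene in this strain, so every group, controls included, carries both. There were 2 unchallenged arrays, 2 arrays of larvae challenged with G418 (an aminoglycoside toxic to eukaryotic cells), and 1 array each of unchallenged F3 larvae without past exposure and with past exposure in the F1 generation. Whether the 2 arrays of a group stand for separate dissections is not stated in the labels, so a p-value here reflects the spread between arrays, which could be technical alone. Below, paired values of a group are given for replicate 1 and then replicate 2, and F3 values for without and then with past exposure.

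The organ label was checked first. All 8 listed proventriculus and foregut markers, among them fkh, dve, drm and hry (hairy), stood above background on all 6 arrays. The arrays also differed in markers of other tissues. Summed over 8 measured nervous tissue markers, the log2 level reached 52.7 on unchallenged replicate 2, against 34.0 to 35.7 elsewhere. Summed over 6 salivary gland markers it was 48.9 and 73.7 without challenge, 85.0 and 79.2 with G418, and 47.9 and 47.8 in F3. Summed over 4 fat body markers it was 55.1 and 49.1, then 51.8 and 53.6, then 29.1 and 44.4. What part these differences have in the results was not tested, except where a value without the array is given.

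The table holds no detection calls, so background was described with genes of another organ. A gene was called above background on an array where its RMA value (log2) exceeded the 95th percentile of 56 odorant receptor genes on that array. That ceiling lay between 4.50 and 4.86. It is set across probe sets, which differ in brightness for the same amount of RNA, so it separates signal from background only roughly and says nothing of the order of genes.

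The organ showed few of these regulators. Only 4 of the 37 measured genes, al, nub, bap and kni, stood above background on all 6 arrays, where 61.3% of all genes did. Another 13 stayed below the ceiling on all 6 arrays (27.3% of all genes did), and 20 were above it on some arrays only. On unchallenged replicate 2 the count above background was 23 of 37, against 6 to 13 on the other 5 arrays. Of all genes the share above background was 65.5% and 69.1% on the unchallenged arrays, 65.8% and 66.8% with G418, and 64.5% and 65.2% in F3. In RNA of a whole organ, fewer cells of a type and less RNA per cell cannot be told apart.

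**Figure D1:**
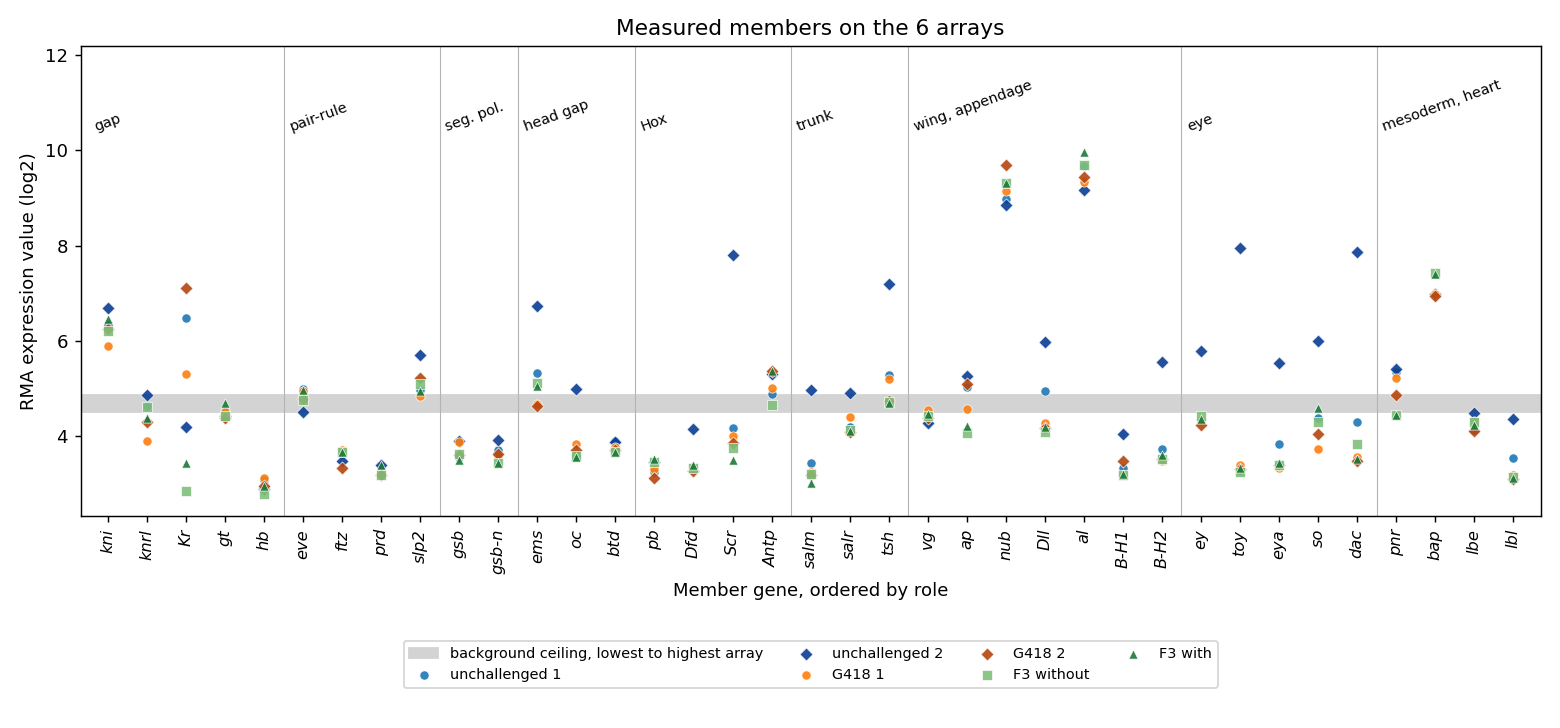
RMA expression values (log2) of the 37 measured genes, ordered by role, with 1 point per array and the background ceiling of the 6 arrays (4.50 to 4.86) as a grey band. al, nub, bap and kni lie above the band on every array, while toy, dac and Scr lie above it on unchallenged replicate 2 alone.

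The aristaless gene al encodes a homeodomain protein known for patterning the tip of the leg and the antenna. Its values were 9.66 and 9.17 without challenge, 9.34 and 9.43 with G418, and 9.70 and 9.96 in F3. It thus stood far above the ceiling on all 6 arrays, by at least 4.49 on the log2 scale, and the groups overlapped.

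The POU domain gene nub is known for wing growth, and in the adult midgut it marks differentiated enterocytes. It measured 8.98 and 8.85 without challenge, 9.15 and 9.69 with G418, and 9.31 on each F3 array. Both G418 arrays lay above both unchallenged arrays, and nub was the 1 measured gene of the list of which this held. The array has 3 probe sets for nub, and the other two stayed below the ceiling on all 6 arrays, so the signal came from 1 probe set.

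bap encodes an NK-type homeodomain protein needed for the visceral mesoderm, which forms the muscle coat of the gut. It was steady, at 6.96 and 6.97, then 6.98 and 6.93, with both F3 arrays somewhat higher at 7.41 and 7.39. The other measured regulators of mesoderm and heart were not steady signals. The GATA factor gene pnr, a regulator of heart and dorsal thorax, read 5.33 and 5.41, then 5.21 and 4.86, then 4.43 on each F3 array. It was above background on the 4 unchallenged and G418 arrays only. lbe and lbl, a pair of ladybird homeobox genes of muscle and heart, stayed below the ceiling on all 6 arrays.

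Among the gap genes, kni, a nuclear receptor family gene that also patterns wing veins and tracheal branches, was above background everywhere. It read 6.34 and 6.69, then 5.89 and 6.25, then 6.21 and 6.46, so both G418 arrays lay below both unchallenged arrays, though G418 replicate 2 did so by a small margin. Its relative knrl lies close by in the genome, with 1 coding gene between them. knrl read 4.63 and 4.85, then 3.88 and 4.29, then 4.60 and 4.37, and passed the ceiling on unchallenged replicate 2 alone.

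Kr, a zinc finger gap gene that later specifies the Malpighian tubules, varied more between arrays than any other gap gene measured. It read 6.48 and 4.18 without challenge, 5.30 and 7.11 with G418, and 2.84 and 3.43 in F3. Kr was above background on unchallenged replicate 1 and both G418 arrays, and the 2 groups overlapped. The summed fat body markers stood in nearly the same order over the arrays, with unchallenged replicate 1 and G418 replicate 2 highest and the F3 arrays lowest. Their part in the Kr values was not tested. The remaining gap genes gt and hb stayed below the ceiling on all 6 arrays, hb between 2.78 and 3.11.

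Pair-rule and segment polarity genes gave little signal. ftz and prd, and the neighbouring paired-type genes gsb and gsb-n, were below the ceiling on every array, the 4 of them between 3.17 and 3.90. eve was above it on 5 arrays but by no more than 0.20, with values between 4.50 and 4.98, so it lay at the edge of background. slp2, a forkhead gene, read 4.96 and 5.70, then 4.83 and 5.20, then 5.09 and 4.94. It cleared the ceiling on 5 arrays and missed it on G418 replicate 1 by a margin of -0.02.

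Of the 8 Hox genes 4 were measured. pb and Dfd, which act in the mouthparts and the head, stayed below the ceiling on all 6 arrays, pb between 3.10 and 3.52 and Dfd between 3.26 and 4.13. Antp, the thoracic Hox gene, read 4.87 and 5.29, then 5.01 and 5.35, then 4.65 and 5.37, and missed the ceiling only on the F3 array without past exposure. Of its other 2 probe sets, 1 passed the ceiling on unchallenged replicate 2 alone and the other on no array. Scr, the Hox gene of the labial and first thoracic segments, read 4.15 and 7.81 on the unchallenged arrays. It lay between 3.49 and 3.98 on the G418 and F3 arrays.

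Scr was 1 of 12 listed genes that were at least 2-fold higher on unchallenged replicate 2 than on each of the other 5 arrays. This rule was chosen after the values were seen. Over all genes 326 of 11982 (2.72%) met it, and no listed gene met it for any other array. The 12 genes were Scr, the trunk zinc finger genes tsh and salm, the appendage genes Dll and B-H2, the head genes ems and oc, and all 5 eye genes: ey, toy, eya, so and dac. Of these, 9 were below the ceiling on all 5 other arrays, the exceptions being Dll, ems and tsh.

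The eye genes form the retinal determination network, in which the Pax6 genes toy and ey act above so, eya and dac, and several of them also act in the brain. toy reached 7.94 on unchallenged replicate 2, against 3.22 to 3.38 elsewhere. Its 3 probe sets disagreed in size: a further probe set read 4.55 there against at most 3.15 elsewhere, and the last stayed below the ceiling on all 6 arrays. dac was at 7.86 there and at 4.28 on unchallenged replicate 1, and lay between 3.46 and 3.81 on the remaining arrays. ey, so and eya were at 5.78, 5.98 and 5.53 on unchallenged replicate 2. Their highest values elsewhere were 4.40, 4.57 and 3.82.

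tsh, which sets trunk identity together with Hox genes, read 5.28 and 7.19 without challenge, 5.20 and 4.73 with G418, and 4.71 and 4.69 in F3. ems, a homeobox gene of the anterior head and brain, read 5.32 and 6.73, then 4.66 and 4.62, then 5.10 and 5.04. tsh was thus above background on both unchallenged and both G418 arrays, and ems on every array but G418 replicate 1. oc (orthodenticle), another homeobox gene of head and brain, reached 4.99 on unchallenged replicate 2 and no more than 3.81 elsewhere, while the head gap gene btd stayed below the ceiling on all 6 arrays. Dll, needed for the distal part of limbs, read 4.94 and 5.97, then 4.27 and 4.16, then 4.07 and 4.17. A second Dll probe set read 7.07 on unchallenged replicate 2 and at most 4.13 on the others, and the last showed no such difference, at 4.34 there and between 4.19 and 4.81 elsewhere. salm, a zinc finger gene of trunk, trachea and wing, and the Bar homeobox gene B-H2 cleared the ceiling on that array alone, at 4.96 and 5.54, against at most 3.42 and 3.71 on the others. salr, the neighbour of salm, did so too at 4.89, less than 2-fold above its next value of 4.39.

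The nervous tissue markers moved on the same array. Of 8 measured, 5 (elav, fne, repo, Syn and cpo) were at least 2-fold higher on unchallenged replicate 2 than on each other array. fne, an RNA-binding protein gene of neurons, was at 9.69 there and at most 3.92 elsewhere, and the glial gene repo at 7.42 and at most 3.49. fne, repo and Syn were below the background ceiling on the other 5 arrays, while elav was above it on 3 arrays in all and cpo on 4. brp was above the ceiling on all 6 arrays, at 6.05 on unchallenged replicate 2 and at most 5.75 elsewhere. nSyb was at 4.73 on unchallenged replicate 2 and at 4.76 on G418 replicate 1, and para stayed below the ceiling on all 6. The part of nervous tissue RNA in the values of the 12 genes was not tested, and no list of imaginal disc markers apart from the listed genes themselves was used.

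**Figure D2:**
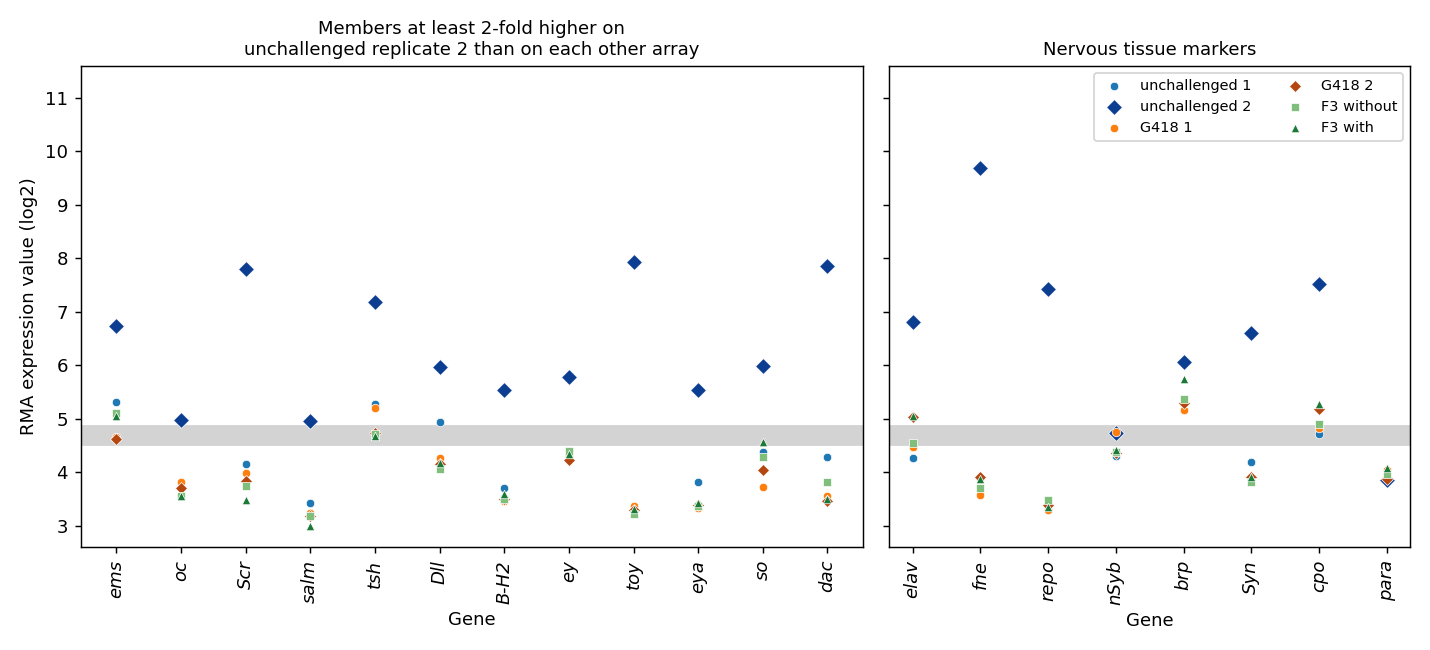
RMA expression values (log2) of the 12 listed genes at least 2-fold higher on unchallenged replicate 2 than on each other array (left) and of 8 nervous tissue markers (right), with 1 point per array and the background ceiling as a grey band. toy at 7.94, dac at 7.86 and Scr at 7.81 on that array stand beside fne at 9.69 and repo at 7.42.

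In all 6 paralogue pairs with both genes measured (gsb and gsb-n, kni and knrl, salm and salr, ey and toy, B-H1 and B-H2, lbe and lbl), both genes were higher on unchallenged replicate 2 than on replicate 1. Of the 37 genes 28 were, against 50.5% of all genes. These 28 include the 12 genes chosen as high on that array, among them salm, ey, toy and B-H2 of the pairs. For the 12 the direction follows from the choice. The differences were unequal within a pair: 4.68 for toy and 1.46 for ey, 1.83 for B-H2 and 0.73 for B-H1, and 1.54 for salm and 0.71 for salr, on the log2 scale. B-H1 remained below the ceiling on all 6 arrays while its neighbour B-H2 reached 5.54. vg, the wing selector, stayed below the ceiling on all 6 arrays, and ap, the dorsal wing selector, read 5.03 and 5.26, then 4.57 and 5.09, then 4.06 and 4.20. By this probe set ap was above background on both unchallenged arrays and G418 replicate 2, and below it on both F3 arrays. A second ap probe set read 5.13 and 5.86, then 4.30 and 4.43, then 3.32 and 3.66, and so passed the ceiling on the unchallenged arrays alone. The G418 differences of the 2 probe sets were -0.31 and -1.13.

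The first comparison of the study set G418-challenged against unchallenged larvae. In limma with Benjamini-Hochberg adjustment over 18769 probe sets, 0 of the 37 genes passed an adjusted p of 0.05. The background was the same, with 0.0% of probe sets called lower and 0.0% higher. At an unadjusted p under 0.05 there were 3 lower and 0 higher, where 2.09% and 2.18% of all genes were. These 3 were Dll at -1.25 ± 0.38 (SE, n = 2 arrays each), knrl at -0.66 ± 0.21 and ems at -1.38 ± 0.50. The next by p were lbl at -0.81 ± 0.31, so at -1.30 ± 0.58 and eya at -1.32 ± 0.61, and all 6 had an adjusted p of 0.788 in limma. Without unchallenged replicate 2 the last 3 differences were -0.41 for lbl, -0.50 for so and -0.46 for eya. For the further Dll probe sets the G418 differences were 0.0067 and -2.55. The probe set that stands for Dll had the highest average only with unchallenged replicate 2 counted. The smallest two-sided p that an exact permutation test of 2 arrays against 2 allows is 0.33.

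Although none passed, most of the differences were negative: 30 of 37 genes, against 52.3% of all genes. Both G418 arrays lay below both unchallenged arrays for 16 genes (20.1% of all genes) and above them for 1, nub (18.3%). Of the 16 genes, 4 (prd, gsb-n, lbl and btd) were below the background ceiling on all 6 arrays. A further group (knrl, salm, eya, so, dac, B-H2 and Scr) passed it on unchallenged replicate 2 alone. Of the 16, 9 belong to the 12 genes chosen as high on that array, and 7 to the other 25. The median log2 difference over the 37 genes was -0.31, and over all genes -0.02. With probe sets below the median brightness removed, which left 8 of the genes, it was -0.17, against -0.11 over all genes left. The 8 include ems and tsh, which are among the 12 genes high on unchallenged replicate 2. Without that array the averages of both fall below the brightness cut, so this median is not free of it. The others of the 8 ran from -0.45 (kni) to 0.50 (nub). Most of the organ's own markers were negative too: 6 of 8 proventriculus and foregut markers had a negative difference, with a median of -0.41. Among them were sob at -0.58 and fkh at -0.54. Summed over the 8, the log2 level was 77.3 and 78.0 without challenge, and 72.7 and 77.3 with G418. Thus only G418 replicate 1 stood lower. All 6 salivary gland markers had a positive difference, with a median of 3.34, and no marker of either list passed the test. Their part in the differences of the 37 genes was not tested. Leaving out an unchallenged array moved the median over the 37 genes by over 1.5 times. Without unchallenged replicate 2 that median was -0.10, and without unchallenged replicate 1 it was -0.62. Leaving out a G418 array moved it less, to -0.23 without G418 replicate 1 and -0.40 without G418 replicate 2.

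The 12 genes high on unchallenged replicate 2 were chosen for values that include this contrast, so their negative difference with G418 (median -1.29) follows from the choice and is no result. The other 25 genes had a median of -0.11, and of -0.04 without that array. These 25 are what the same choice left over, so their smaller difference is no result either. dac was at -2.56 ± 1.24 (SE), toy at -2.26 ± 1.62 and Scr at -2.06 ± 1.27, with SEs that reflect unchallenged arrays far apart. Without unchallenged replicate 2 these differences were -0.78 for dac, 0.08 for toy and -0.24 for Scr, so that of toy changed sign. For Dll, by the same probe set, and ems they were -0.73 and -0.68, for B-H2 -0.23 and for tsh -0.32. Against unchallenged replicate 2 alone, limma called 6 of the 37 genes lower (toy, dac, Scr, eya, ems and B-H2), where 1.02% of probe sets were called lower. There the lone unchallenged array is assumed to vary like the G418 arrays, and all 6 genes belong to the 12 chosen for being high on it, so these calls only restate that this array is high. Against unchallenged replicate 1 alone it called 0 of the 37, and 0.0213% of probe sets lower.

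Single pairs of arrays were also compared. Between each G418 array and unchallenged replicate 2, 13 of the 37 genes were at least 2-fold lower, where 10.1% of all genes were for G418 replicate 1 and 4.35% for G418 replicate 2. These were lbl and the 12 genes chosen as high on unchallenged replicate 2. For the 12 this follows from the choice, so the count is no result about the list. Against unchallenged replicate 1, only Kr was at least 2-fold lower on G418 replicate 1 (2.45% of all genes), and no listed gene was on G418 replicate 2 (1.24%). Both G418 arrays lay below unchallenged replicate 1 for 19 of the 37 genes, against 32.8% of all genes, and above it for 5, against 27.7%. Of the 12 chosen genes 9 lay below and 2 above, and of the other 25 genes 10 (40.0%) below and 3 above. Among the 19, prd, gsb-n, knrl, gt, salm, eya, so, dac, B-H2, lbl, btd and Scr were below the ceiling on all of these arrays.

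**Figure D3:**
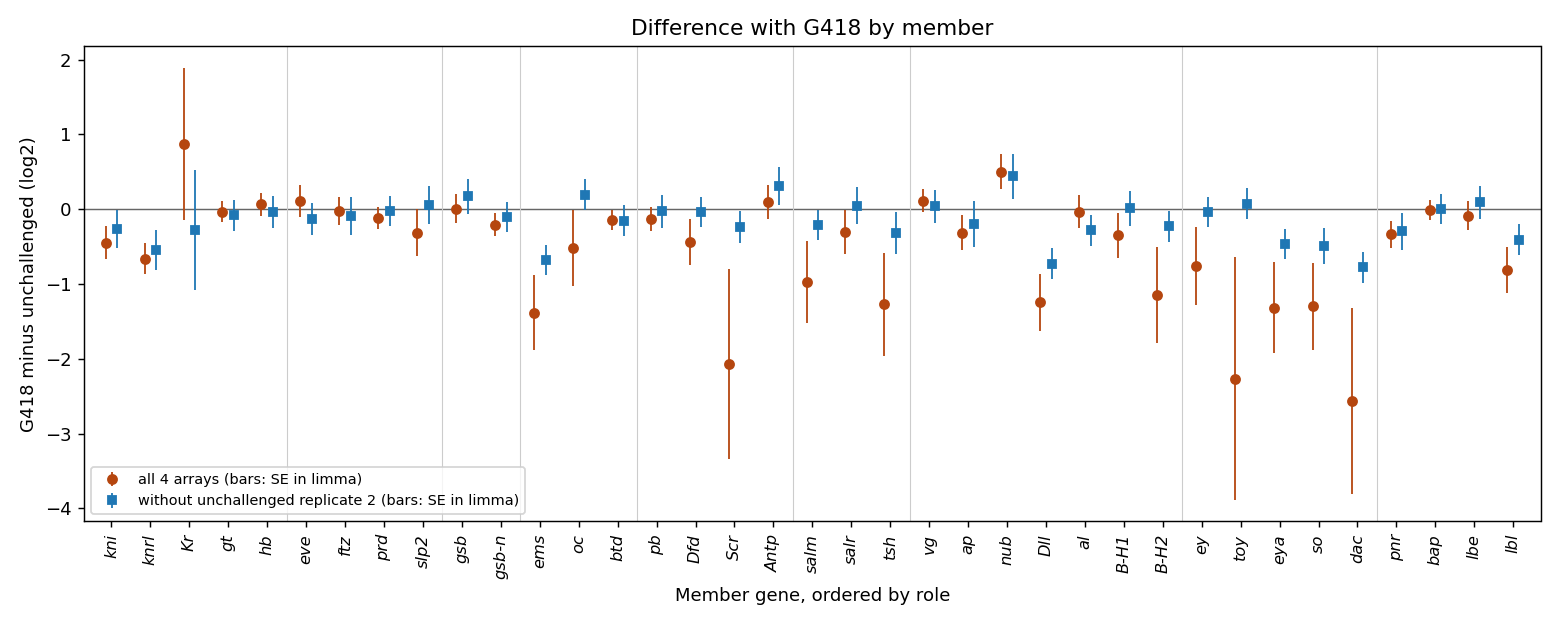
Log2 difference of G418 minus unchallenged for each of the 37 measured genes, with all 4 arrays (circles) and without unchallenged replicate 2 (squares), and SEs from limma as bars. The median moves from -0.31 to -0.10, and the differences of dac (-2.56), toy (-2.26) and Scr (-2.06) shrink to between -0.78 and 0.08.

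Of the genes above background on all arrays, none passed the test with G418. nub was at 0.50 ± 0.23 (SE), or 1.42-fold higher, with 8.92 ± 0.09 on the unchallenged and 9.42 ± 0.38 on the G418 arrays (SD, n = 2) and an adjusted p of 0.788 in limma. Averaged over its 3 probe sets the difference was 0.27, and with 1 array left out it ran from 0.23 (without G418 replicate 2) to 0.77 (without G418 replicate 1). kni was at -0.45 ± 0.22, also with an adjusted p of 0.788. It was -0.26 without G418 replicate 1 and -0.27 without unchallenged replicate 2. al was at -0.03 ± 0.22 and bap at -0.01 ± 0.13, both with signs that turned under a further quantile normalization. Kr was at 0.88 ± 1.02, and at -0.27 without unchallenged replicate 2.

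The second comparison set F3 larvae with past exposure in F1 against F3 larvae without it, with 1 array each, no replicate and so no test. None of the 37 genes was 2-fold or more higher (0.434% of all genes were) and none 2-fold or more lower (1.11%). Replicate arrays of 1 group differed more: 13 of the 37 genes were 2-fold or more apart between the unchallenged arrays (8.56% of all genes), and 1, Kr, between the G418 arrays (4.0%). The F3 difference was positive for 21 genes and negative for 16, against 53.2% positive over all genes. Its median was 0.0085 over the 37 genes, and 0.0155 over all genes.

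Among genes above background on either F3 array, Antp differed most, from 4.65 without to 5.37 with past exposure, a log2 difference of 0.72. The value without past exposure was below the ceiling. The other 2 Antp probe sets differed by -0.0012 and -0.20, both below the ceiling on the F3 arrays, so the probe sets did not share the difference. al differed by 0.26, kni by 0.25 and eve by 0.21. Kr differed by 0.59, but was below the ceiling on both arrays.

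**Figure D4:**
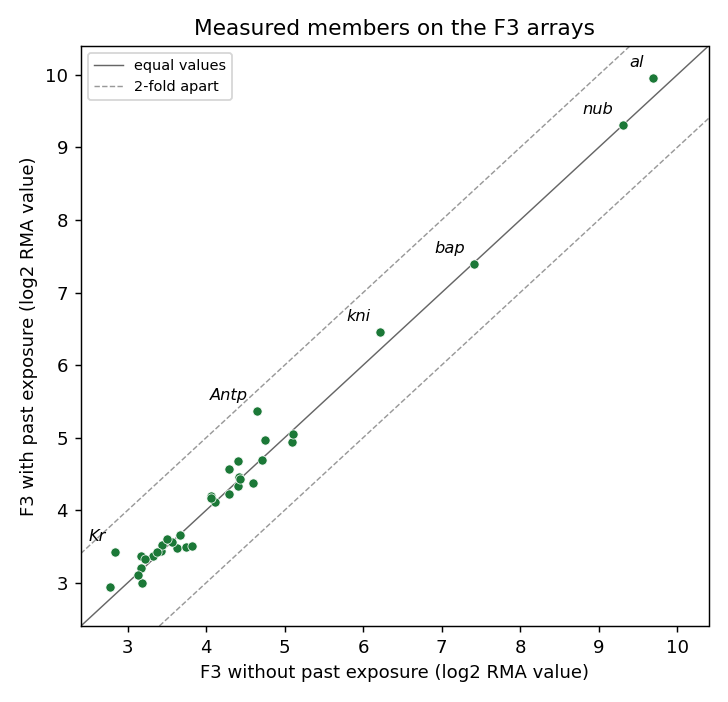
RMA values (log2) of the 37 measured genes on the F3 array with past exposure (vertical axis) against the one without (horizontal axis), with the line of equal values and dashed lines 2-fold apart. All points lie between the dashed lines, with Antp (4.65 and 5.37) and Kr (2.84 and 3.43) nearest to the upper one.

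Other genes of the same developmental pathways were described from a list of 25 segmentation and selector genes and Hox cofactors. hry and odd of this list also served as proventriculus and foregut markers. The Hox cofactors exd and hth, and wg, were not measured. Of the 22 measured genes, 12 stood above background on all 6 arrays (61.3% of all genes) and 4 below it on all 6 (27.3%). Those above included the Iroquois homeobox gene ara, between 10.44 and 11.43, and hh, the Hedgehog ligand gene, between 7.59 and 9.34. In limma 0 of 22 passed with G418. Of the 22 differences 19 were negative, against 52.3% of all genes, with a median of -0.45, against -0.02. However, 16 of the 22 were higher on unchallenged replicate 2 than on replicate 1, against 50.5% of all genes. No difference without that array is given for this list. On unchallenged replicate 2 alone 5 were at least 2-fold higher than on each other array (2.72% of all genes): opa, en, ci, Optix and D. All of these but ci were below the ceiling on every other array. The SoxB gene D, for example, was at 7.55 there and at most 4.44 elsewhere.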

How the data were processed

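RNA was measured on Affymetrix Drosophila 2.0 arrays. The deposited values are log2 expression values. Per the submitters' processing notes the authors used RMA and Affymetrix Expression Console. Whether all arrays were normalized together is not given in the sources used here. Of 18952 probe sets, 183 controls were left out and 18769 tested. Through the array annotation, updated by RefSeq gene identifiers (assembly Release 6), 13647 had 1 gene symbol, 402 several and 4720 none here. Where a gene had several, the probe set with the largest average across arrays was used.

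The G418 comparison used limma 3.58.1 (lmFit, eBayes) in R 4.3.3, with 2 arrays a group and Benjamini-Hochberg adjustment over all probe sets. On simulated data of these 18769 probe sets the test called 0 of 50 changed by 1 on the log2 scale, 32 of 50 changed by 2 and 46 of 50 changed by 4, with 6 false calls. The simulated noise was independent between probe sets, with no array that deviated at many of them together. Between the real unchallenged arrays, 1293 probe sets were 2-fold or more apart. There the salivary gland marker Sgs4, at a difference of 4.26, had an adjusted p of 0.788 in limma. The simulated counts therefore do not show what the test could find in these arrays. The F3 arrays were described without a test. Array values have no depth, so the number of arrays limits precision.

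The genes, lists and tests were chosen with earlier results of these data known. Named were genes above background on at least 1 array, all measured Hox genes, 6 genes with the smallest p for G418, 4 with the largest F3 difference among those above background on an F3 array, paralogue pairs and tissue markers. Of the lists, the tracheal one was read by btl alone (4.80 to 5.79), 4 muscle markers had a median G418 difference of 0.27, and 5 haemocyte markers one of -0.59. Alternatives covered the replicate block, variance prior, filter, normalization, probe set choice, background ceiling and leaving out each array.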

Additional observations from a re-analysis of the deposited data

How the results depend on the processing

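Of the 37 genes, 0 passed limma's adjusted threshold under every alternative with all 4 arrays; 3 had an unadjusted p under 0.05. With 1 array left out, the count ran from 0 to 6, the 6 (toy, dac, Scr, eya, ems and B-H2) against unchallenged replicate 2 alone, a lone array assumed to vary like the G418 arrays and the one on which these genes were chosen as high. With the replicate block it was 0, with 5 at an unadjusted p under 0.05. Same-numbered arrays deviated together (r = 0.32 over probe sets), but the labels do not say that numbers pair arrays. Genes whose groups did not overlap numbered 17 of 37 (38.4% of all genes). With 1 array left out they numbered 24 to 33, where 58.5% to 79.9% of all genes did not overlap, so these counts are no result about the list. Of the 8 genes left when dim probe sets were removed there were 4 (40.1% of all genes left). The median G418 difference kept its sign, from -0.62 to -0.10 with 1 array left out. It was -0.17 over the 8 brighter genes, where all genes left were at -0.11. Of these 8, ems and tsh passed the brightness cut only through unchallenged replicate 2. With 1 array left out nub ran from 0.23 to 0.77 and kni from -0.63 to -0.26. The signs of al and bap turned after a further quantile normalization (0.048 and 0.15). With 1 array left out al ran from -0.28 to 0.22, bap from -0.030 to 0.018, toy from -4.60 to 0.076 and Kr from -0.27 to 2.03. The F3 median turned to -0.0091 over the 8 brighter genes, and 2 genes, Kr and Antp, were 1.5-fold or more apart. Genes above background on all 6 arrays numbered 3 to 5 under other ceilings, and 4 to 6 with 1 array left out. Under the ceiling from chorion, vitelline membrane and accessory gland protein genes kni dropped out, at 5.89 against 5.95 on G418 replicate 1. Under the one from gustatory receptor genes slp2 came in. The rule for unchallenged replicate 2, added after the data were seen, took 11 to 14 genes under its alternatives. The causes of these changes were not tested beyond the array or genes left out.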

Other observations

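cad, a homeobox gene of the posterior gut that is not among the 45 genes, differed between the F3 arrays. It was at 5.83 without past exposure and 3.64 with it, where it was below the background ceiling, and at 4.85 and 3.52 on unchallenged replicates 1 and 2. On the G418 arrays it was at 3.64 and 3.69. cad is named after its values were seen, and with 1 array in each F3 group the difference was not tested.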
